A study of Mus musculus with 8 samples.

Results

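The genes described here encode the extracellular matrix of liver, the enzymes that shape and degrade it, the growth factors that drive its deposition, and markers of the hepatic stellate cell. They are 42 genes taken by symbol from the 24317 genes of the deposited count table, in which all 42 were present. All libraries came from C57BL/6 livers, 4 of mice that ate normal chow and 4 of mice given chow with 6% NaCl over 6 weeks. The strain is the same in both groups, and the labels used here give no sex or age and do not say how long the normal group was followed. The comparison of the diets asks which liver transcripts change with dietary salt, and here whether genes of early fibrosis were among them. No label says that each library came from a separate mouse. The p-values set the difference between the diets against the spread of these libraries, part of which may be technical.

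Hepatic stellate cells lie between the hepatocytes and the sinusoidal endothelium and store vitamin A. On injury they become contractile myofibroblasts, a change marked by smooth muscle actin (Acta2), and deposit fibrillar collagens of types I and III. The process is driven chiefly by transforming growth factor beta, encoded by Tgfb1, and by platelet-derived growth factor acting on the receptor Pdgfrb, while the inhibitor Timp1 slows the removal of matrix. Hepatocytes themselves make some matrix proteins, above all plasma fibronectin (Fn1) and collagen XVIII (Col18a1), the precursor of endostatin.

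Libraries held 16620368 to 18639685 counted reads, and levels are given as CPM, the usual read count scaled to a common library total. Hepatocyte transcripts dominated every library, with albumin (Alb) at 111759 ± 6199 CPM in the normal-chow livers and 108708 ± 1783 CPM in the high-salt livers (mean ± SD, n = 4 per group here and below). One library stood apart in the matrix genes. High salt 1 was the lowest of the 8 libraries in 20 of the 39 matrix and stellate genes with enough reads to be tested, or 51.3%, and in 11.7% of all tested genes. It also had the fewest reads and the fewest genes with a count, 18748 against 18759 to 19424 in the other libraries. Normal chow 1 stood apart in Col5a2 and high salt 3 in Acta2. The main results that rest on these libraries are also given without them.

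No matrix or stellate gene passed the test for a difference between the diets. By edgeR's quasi-likelihood test, with Benjamini-Hochberg adjustment over 13341 genes, 0 of 39 were called at an adjusted p below 0.05, beside 0.3% of all tested genes. The smallest adjusted p among them was 0.267, for Tgfbr1. DESeq2 called 0 of the 38 with an adjusted p (1.9% of all genes) and limma-voom 0 of 39 (0.112%). The adjusted p of the authors' deposited table was below 0.05 for 0 of the 39 of the 42 genes that have one there, beside 1.41% of all genes, and the smallest was 0.273. At an unadjusted p below 0.05 there were 7 of 39, beside 10.9% of all genes. Of these, 2 were higher in high salt (Tgfbr1 and Tgfb1, beside 5.33% of all genes) and 5 were lower (Timp3, Reln, Lamb1, Bgn and Col15a1, beside 5.6%).

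The estimates lay on both sides of 0. Where a gene is given below with a signed value and ± but no unit, it is the log2 fold change of high salt over normal chow with its standard error. The log2 fold change of high salt over normal chow was above 0 in 24 of 39 genes, beside 51.3% of all tested genes, and its median was 0.03, beside 0.01 over all genes. With total-count scaling these medians were 0.09 and 0.07. Without high salt 1, 24 of 39 were above 0 with a median of 0.04, and 4 were below an unadjusted p of 0.05. Leaving out other libraries gave 15 to 26 above 0, the lowest count without normal chow 2, and 2 to 8 below an unadjusted p of 0.05, the lowest count without normal chow 3. In 28 of 39 genes the 95% interval of the fold change lay wholly within 1.5-fold either way (67.1% of all genes), and in 35 of 39 within 2-fold (88.6%). For the other genes the interval reached past those bounds, so these libraries do not bound their change to that size. In RNA of whole liver, a change in the number of stellate cells and a change in RNA per cell cannot be told apart.

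**Figure D1:**
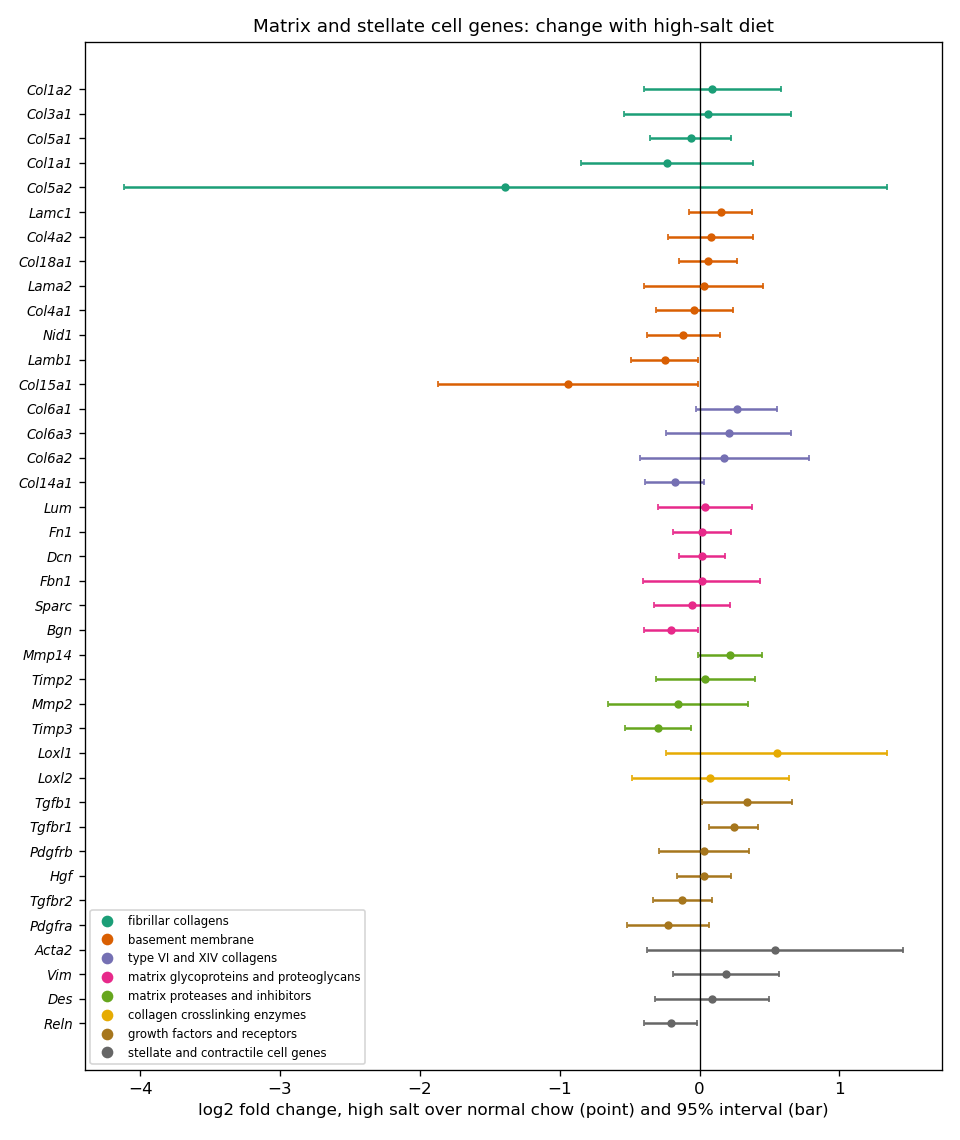
Log2 fold change of high salt over normal chow for the 39 tested genes (points, with bars for 95% intervals), coloured by role. Most intervals include 0, and the widest belongs to Col5a2, from -4.12 to 1.34.

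Fibrillar collagens, the scar-forming proteins, were not called, and their values differed widely between libraries of the same diet. Listed in order of library number, Col1a1, the alpha 1 chain of type I collagen, was at 13.6, 6.77, 9.103 and 7.68 CPM in the normal-chow livers and 4.56, 7.496, 9.56 and 9.92 CPM in the high-salt livers. The groups overlapped, with the highest value in normal chow 1 and the lowest in high salt 1. Its log2 fold change was -0.23 ± 0.27 (SE; 95% interval -0.85 to 0.38; edgeR adjusted p = 0.826), and -0.05 without high salt 1. Col1a2, the partner chain of the same triple helix, was at 17.03, 10.9, 11.04 and 14.3 CPM in the normal-chow livers and 8.53, 16.03, 14.7 and 17.5 CPM in the high-salt livers. For Col1a2 the log2 fold change was 0.09 ± 0.22 (95% interval -0.40 to 0.58; edgeR adjusted p = 0.927), and 0.26 without high salt 1. Col3a1, type III collagen, was at 38.1, 22.5, 29.98 and 29.9 CPM in the normal-chow livers and 17.5, 35.1, 33.6 and 39.1 CPM in the high-salt livers. High salt 1 again gave the lowest value and the other high-salt libraries lay among or above those of normal chow. The log2 fold change of Col3a1 was 0.06 ± 0.26 (95% interval -0.54 to 0.65; edgeR adjusted p = 0.963), and 0.25 without high salt 1. As folds, the intervals with all libraries ran from 0.555 to 1.302 for Col1a1, from 0.759 to 1.495 for Col1a2 and from 0.689 to 1.57 for Col3a1.

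The type V chains, which set fibril diameter, parted in 1 library. Col5a1 was at 8.81, 6.89, 8.13 and 7.95 CPM in the normal-chow livers and 6.64, 7.99, 6.86 and 8.88 CPM in the high-salt livers, with a log2 fold change of -0.06 ± 0.13. Col5a2, chosen after its values were seen, was at 76.5, 5.903, 5.401 and 4.09 CPM in the normal-chow livers and 7.94, 14.3, 7.04 and 5.73 CPM in the high-salt livers. The value of normal chow 1 was 5.36 times the next highest, and no other matrix or stellate gene stood so far above the rest in any library. Col3a1 lies beside it on chromosome 1 in GRCm38 (45311538 to 45349706, against 45374321 to 45503282 for Col5a2), and at 38.1 CPM in normal chow 1 it was not above its highest value elsewhere. The log2 fold change of Col5a2 was -1.39 ± 1.12 with all libraries (95% interval -4.12 to 1.34; edgeR adjusted p = 0.739). It was 0.77 without normal chow 1 (edgeR adjusted p = 0.385), so the sign rests on that library.

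**Figure D2:**
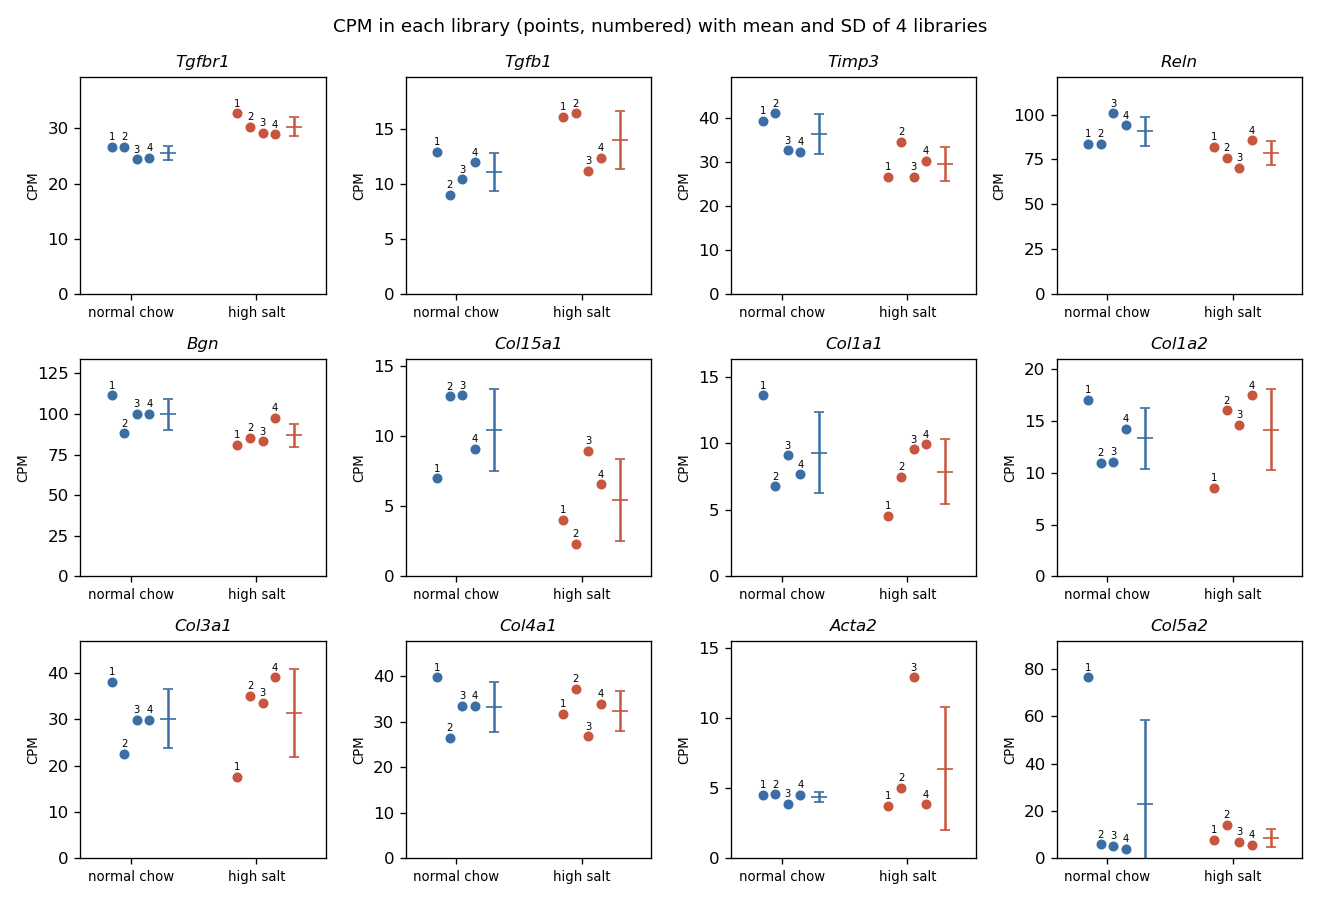
CPM in each library (numbered points) for 12 of the genes, with the mean and SD of the 4 libraries of each diet beside them (the bar of Col5a2 in normal chow is cut at 0). Tgfbr1 is the 1 gene whose groups do not overlap, Col5a2 is at 76.5 CPM in normal chow 1 and Acta2 at 12.9 CPM in high salt 3.

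Among basement membrane genes the largest estimate was that of Col15a1. This gene encodes collagen XV, a collagen of vascular basement membranes, and was at 7.01, 12.8, 12.9 and 9.11 CPM in the normal-chow livers and 4.03, 2.298, 8.97 and 6.56 CPM in the high-salt livers. The ranges overlapped, since high salt 3 lay above normal chow 1, and the lowest value was that of high salt 2. Its log2 fold change was -0.94 ± 0.40 (95% interval -1.87 to -0.01; edgeR adjusted p = 0.454), and between -1.28 and -0.69 in the 8 fits that left out 1 library. Lamb1, the laminin beta 1 chain, was at 11.9, 10.8, 12.3 and 11.8 CPM in the normal-chow livers and 8.71, 10.8, 10.5 and 9.32 CPM in the high-salt livers. Only high salt 2 reached the range of normal chow, and the log2 fold change was -0.25 ± 0.11 (edgeR adjusted p = 0.434). The estimates were 0.15 ± 0.10 for the laminin chain gene Lamc1 and 0.03 ± 0.20 for Lama2. Among the further matrix genes, Lama4 had -0.23 ± 0.14, Lama5 -0.27 ± 0.17 and Lamb2 -0.23 ± 0.14, and none of these chains was called. Nid1, nidogen, which links laminin to type IV collagen, had -0.12 ± 0.12. Col18a1 was the most abundant of the group, at 874 ± 94.2 CPM in the normal-chow livers and 911 ± 72.5 CPM in the high-salt livers (0.06 ± 0.10).

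Col4a1 and Col4a2 encode the chains of the type IV collagen network and are transcribed away from each other from 1 shared region on chromosome 8. Col4a1 was at 39.7, 26.4, 33.5 and 33.4 CPM in the normal-chow livers and 31.7, 37.2, 26.7 and 33.9 CPM in the high-salt livers, and Col4a2 at 21.03, 14.6, 20.6 and 17.95 CPM in the normal-chow livers and 16.9, 22.6, 16.4 and 22.5 CPM in the high-salt livers. Both had their lowest value in normal chow 2, and neither was called (log2 fold changes -0.04 ± 0.13 and 0.08 ± 0.14; edgeR adjusted p = 0.956 and 0.890). The estimate for Col4a1 was 0.03 with total-count scaling. The ratio of the pair stayed between 1.504 and 1.89 in the 8 libraries. Its coefficient of variation within groups was 8.09%, against 15.02% for Col4a1 and 16.7% for Col4a2 on their own. The genes overlap on opposite strands only from 11312805 to 11312826 on chromosome 8, where reads can belong to either gene. Their principal transcripts are 6615 bases (Col4a1) and 6450 bases (Col4a2) long. The ratio of Col1a1 to Col1a2, the chains of type I collagen, lay between 0.468 and 0.824. Its coefficient of variation was 17.2%, against 31.95% and 25.0% for the genes on their own. The ratio of Col3a1 to Col1a2 lay between 2.06 and 2.71 with a coefficient of variation of 9.90%, against 26.1% and 25.0% for the genes on their own.

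The ratio varied less than the levels for Col4a1 with Col4a2, for Col3a1 with Col1a2 and for Col1a1 with Col1a2. This did not hold for the other pairs computed. For Col6a1 with Col6a2 the ratio varied by 24.0%, against 13.1% and 31.4% for the genes on their own. It varied by 22.9% for Mmp14 with Timp2 (11.9% and 19.8%) and by 9.57% for Dcn with Bgn (3.63% and 9.04%). The start regions of Col4a1, Col4a2, Col1a2 and Col3a1 are shown here, taken from RefSeq on GRCm38.p6. Each runs from 250 bases before to 50 bases after the annotated start, on the strand of the gene. Capitals mark CCAAT, the letters bound by the factor NF-Y, read on either strand (as ATTGG on the reverse).
Col4a1 (chr8:11312777-11313076, minus strand): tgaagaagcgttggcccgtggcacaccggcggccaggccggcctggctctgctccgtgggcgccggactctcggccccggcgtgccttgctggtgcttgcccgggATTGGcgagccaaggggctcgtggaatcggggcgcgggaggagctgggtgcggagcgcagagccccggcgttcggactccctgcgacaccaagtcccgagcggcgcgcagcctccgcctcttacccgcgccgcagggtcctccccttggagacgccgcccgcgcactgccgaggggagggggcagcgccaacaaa
Col4a2 (chr8:11312555-11312854, plus strand): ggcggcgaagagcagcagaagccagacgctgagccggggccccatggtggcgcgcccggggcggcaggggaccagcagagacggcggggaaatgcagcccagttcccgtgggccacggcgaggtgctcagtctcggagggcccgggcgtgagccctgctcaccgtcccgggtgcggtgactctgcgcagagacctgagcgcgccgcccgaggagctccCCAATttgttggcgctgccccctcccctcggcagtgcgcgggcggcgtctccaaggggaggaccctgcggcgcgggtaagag
Col1a2 (chr6:4505368-4505667, plus strand): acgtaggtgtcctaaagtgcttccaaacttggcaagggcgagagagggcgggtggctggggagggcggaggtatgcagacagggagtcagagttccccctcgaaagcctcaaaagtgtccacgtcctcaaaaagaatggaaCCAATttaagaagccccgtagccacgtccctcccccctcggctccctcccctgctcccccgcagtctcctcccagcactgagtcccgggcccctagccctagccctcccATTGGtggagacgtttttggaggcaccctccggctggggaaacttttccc
Col3a1 (chr1:45311288-45311587, plus strand): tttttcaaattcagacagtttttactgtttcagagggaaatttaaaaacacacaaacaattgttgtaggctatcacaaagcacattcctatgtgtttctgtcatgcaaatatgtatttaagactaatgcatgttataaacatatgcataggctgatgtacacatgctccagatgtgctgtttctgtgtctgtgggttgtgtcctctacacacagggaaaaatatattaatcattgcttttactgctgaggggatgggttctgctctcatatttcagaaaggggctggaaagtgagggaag
The windows of Col4a1 and Col4a2 share 78 bases, and their annotated starts lie 21 bases apart. CCAAT occurred once in each of them at different places, at 2 places in Col1a2 and at 0 in Col3a1. Guanine and cytosine made up 74.0% and 73.7% of the Col4a1 and Col4a2 windows, 61.0% of Col1a2 and 37.7% of Col3a1, against a median of 52.7% over 32851 mouse windows. CCAAT was present in 37.4% of all windows and in 14 of the 33 windows found for 29 of the 42 genes. The letters GGGCGG, on either strand, were present in 35.7% of all windows and in 20 of the 33. TATAAA was present in 13.6% of all windows and in 2 of the 33, of which Col3a1 was 1.

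Type VI collagen, which forms beaded microfibrils around cells, was higher in the mean of high salt for each of its 3 chains, and none was called. Col6a1 was at 8.98, 7.81, 7.71 and 9.11 CPM in the normal-chow livers and 8.24, 9.25, 11.7 and 11.3 CPM in the high-salt livers. The higher values were those of high salt 3 and 4, while high salt 1 lay within the normal-chow range. Its log2 fold change was 0.27 ± 0.13 (edgeR adjusted p = 0.503), beside 0.18 ± 0.27 for Col6a2 and 0.21 ± 0.20 for Col6a3. Col14a1, a collagen of fibril surfaces, was at 104, 79.2, 94.3 and 99.3 CPM in the normal-chow livers and 73.9, 88.3, 78.8 and 91.7 CPM in the high-salt livers. The groups overlapped and the log2 fold change was -0.18 ± 0.10 (edgeR adjusted p = 0.549).

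Matrix glycoproteins and proteoglycans held the most abundant gene of the set, Fn1, and the gene that varied least within groups, Dcn. Fn1 was at 2050.3 ± 257 CPM in the normal-chow livers and 2076 ± 127 CPM in the high-salt livers. Dcn, decorin, a proteoglycan that binds collagen and TGF-beta, was at 264, 253, 247 and 259 CPM in the normal-chow livers and 253, 271, 266 and 247 CPM in the high-salt livers. The libraries varied by 3.63% within groups, beside a counting error of 1.49%, and the log2 fold change of 0.02 ± 0.08 had a 95% interval of -0.14 to 0.18. Lum, lumican, the neighbouring small proteoglycan on chromosome 10, had 0.04 ± 0.15. Bgn, biglycan, of the same family, was at 111, 88.02, 99.9 and 100.2 CPM in the normal-chow livers and 80.9, 85.4, 83.2 and 97.4 CPM in the high-salt livers. High salt 4 reached the normal-chow range and the others lay below it. The log2 fold change of Bgn was -0.20 ± 0.09 (95% interval -0.40 to -0.01; edgeR adjusted p = 0.434), and -0.18 without high salt 1. Sparc, a collagen-binding matricellular protein, had -0.06 ± 0.13, and Fbn1, the fibrillin of elastic microfibrils, had 0.01 ± 0.20.

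**Figure D3:**
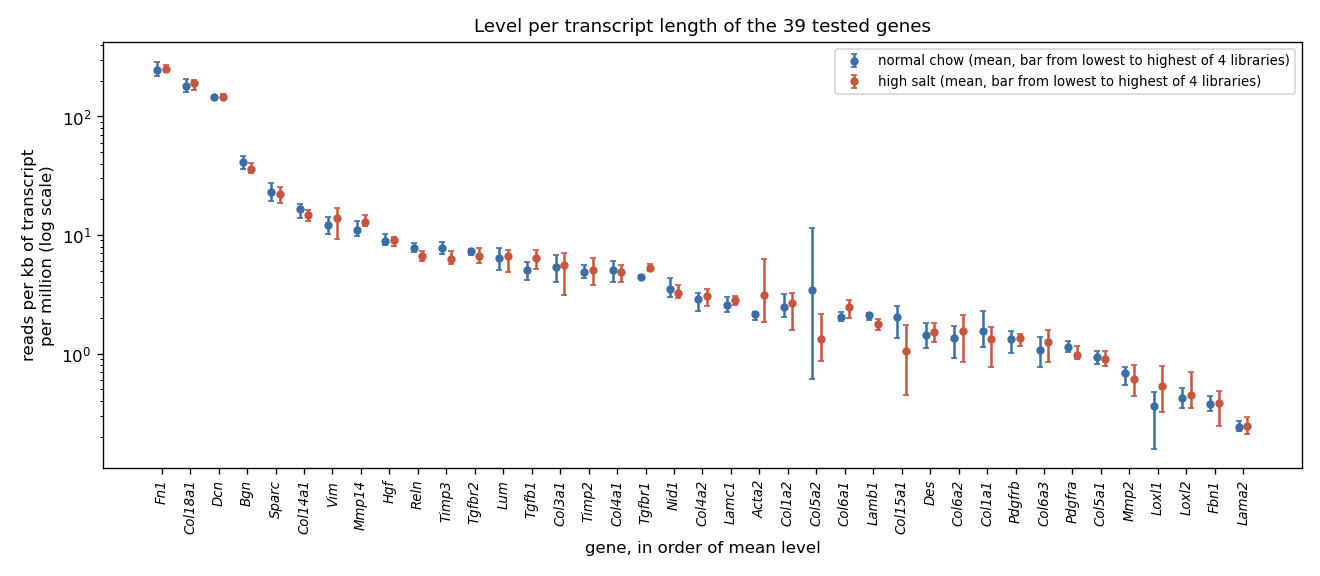
Level as CPM per kilobase of principal transcript for the 39 tested genes, on a log scale, with the mean of each diet and a bar from its lowest to its highest library. Fn1, Col18a1 and Dcn lie at the top, and the means of the diets lie farthest apart for Col5a2 and Col15a1.

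As CPM per kilobase of transcript the order began with Fn1, at 247 ± 30.9 in normal chow and 249.7 ± 15.3 in high salt. Col18a1 followed at 182 ± 19.7 and 190.1 ± 15.1, then Dcn at 145 ± 4.07 and 147 ± 6.34, and Bgn at 41.3 ± 3.95 and 35.9 ± 3.04. On the same scale the scar collagens were far lower, with Col3a1 at 5.41 ± 1.14 and 5.63 ± 1.705, Col1a2 at 2.49 ± 0.545 and 2.65 ± 0.735, and Col1a1 at 1.57 ± 0.512 and 1.33 ± 0.415. Of the stellate and contractile cell genes, Vim was at 12.2 ± 1.76 and 13.9 ± 3.27 and Reln at 7.74 ± 0.703 and 6.704 ± 0.575, above these collagens, while Acta2 was at 2.15 ± 0.162 and 3.14 ± 2.16 and Des at 1.44 ± 0.285 and 1.53 ± 0.303.

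Among proteases and their inhibitors, Timp3 had the smallest p of the genes that were lower in high salt. It encodes a matrix-bound inhibitor of metalloproteinases and was at 39.4, 41.1, 32.8 and 32.4 CPM in the normal-chow livers and 26.8, 34.7, 26.7 and 30.4 CPM in the high-salt livers. The groups overlapped through high salt 2, which lay above normal chow 3 and 4. Timp3 had a log2 fold change of -0.30 ± 0.11 (95% interval -0.53 to -0.06; edgeR adjusted p = 0.337), and -0.39 to -0.24 in the fits without 1 library. Exons of Syn3 overlap Timp3 on the opposite strand, and the counts do not show to which of them such reads went. Mmp14, a membrane-anchored collagenase that activates pro-MMP2, was at 29.3, 26.6, 25.5 and 33.97 CPM in the normal-chow livers and 33.1, 38.6, 31.02 and 31.2 CPM in the high-salt livers. The highest value was that of high salt 2 and the groups overlapped through normal chow 4 (0.22 ± 0.11; edgeR adjusted p = 0.490). Its target Mmp2, gelatinase A, had -0.15 ± 0.23, and Timp2, which takes part in that activation, had 0.04 ± 0.16.

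Timp1, the inhibitor that rises early in fibrotic liver, fell below the filter on low counts. It had 3, 4, 1 and 4 reads in the normal-chow libraries and 2, 0, 2 and 3 in the high-salt libraries, where the count of 0 allows up to 0.164 CPM in that library (3 reads; counting error only). Lox, the lysyl oxidase that crosslinks collagen, had 0, 8, 5 and 3 reads in normal chow and 6, 2, 13 and 4 in high salt. Tagln, transgelin of contractile cells, had 1, 0, 4 and 0 reads in normal chow and 2, 1, 5 and 4 in high salt. Fitted with no filter on low counts, none was called, with log2 fold changes of -0.76 ± 0.91 for Timp1, 0.60 ± 0.66 for Lox and 1.14 ± 0.99 for Tagln (edgeR adjusted p = 0.789, 0.763 and 0.710). The related crosslinking enzyme Loxl1 was at 0.521, 1.39, 1.58 and 1.33 CPM in the normal-chow livers and 1.07, 1.204, 2.58 and 2.21 CPM in the high-salt livers. Its groups overlapped, with the highest values in high salt 3 and 4, and the log2 fold change was 0.55 ± 0.37 (edgeR adjusted p = 0.642). Leaving out normal chow 1 gave 0.30, and leaving out high salt 3 gave 0.31. Loxl2 had 0.08 ± 0.26, and high salt 4 gave its highest value.

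The growth factor genes held the 1 member whose groups did not overlap. Tgfbr1, the type I receptor kinase that phosphorylates SMAD2 and SMAD3, was at 26.6, 26.6, 24.3 and 24.6 CPM in the normal-chow livers and 32.7, 30.2, 29.1 and 28.9 CPM in the high-salt livers. Every high-salt library lay above every normal-chow library, a separation found in 1 of 39 genes and in 6.36% of all tested genes (2.98% with high salt higher and 3.37% with it lower). The log2 fold change of Tgfbr1 was 0.24 ± 0.08 (95% interval 0.07 to 0.42; unadjusted p = 0.00951; edgeR adjusted p = 0.267). It stayed between 0.20 and 0.26 in the 8 fits that left out 1 library, each with an unadjusted p below 0.05 and none with an adjusted p below it. The ligand gene Tgfb1 was at 12.9, 9.03, 10.4 and 11.99 CPM in the normal-chow livers and 16.1, 16.4, 11.2 and 12.4 CPM in the high-salt livers. High salt 1 and 2 lay above all normal-chow libraries, while high salt 3 and 4 lay among them. Tgfb1 had a log2 fold change of 0.34 ± 0.15 (95% interval 0.02 to 0.66; edgeR adjusted p = 0.434). The type II receptor gene Tgfbr2, which binds the ligand first, had a value of the other sign, -0.12 ± 0.10 (edgeR adjusted p = 0.709).

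The receptors for platelet-derived growth factor were low, and neither was called. Pdgfrb, the mitogen receptor of stellate cells, was at 7.94, 5.44, 8.31 and 7.02 CPM in the normal-chow livers and 7.17, 7.99, 6.28 and 7.88 CPM in the high-salt livers. Its log2 fold change was 0.03 ± 0.15 (95% interval -0.29 to 0.35; edgeR adjusted p = 0.965). Pdgfra was at 8.75, 8.45, 7.16 and 7.02 CPM in the normal-chow livers and 6.104, 6.13, 6.63 and 7.99 CPM in the high-salt livers. High salt 1, 2 and 3 lay below all of normal chow and high salt 4 lay among them, with a log2 fold change of -0.22 ± 0.14 (edgeR adjusted p = 0.597). Hgf, the hepatocyte growth factor made by stellate cells, was at 30.8 ± 2.93 CPM in the normal-chow livers and 31.5 ± 2.22 CPM in the high-salt livers (0.03 ± 0.09).

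Stellate cell genes did not move in 1 direction. Reln, reelin, a secreted glycoprotein that marks stellate cells in liver, was at 83.8, 83.9, 101 and 93.96 CPM in the normal-chow livers and 81.96, 75.9, 70.3 and 85.6 CPM in the high-salt livers. The groups overlapped through high salt 4 and the log2 fold change was -0.21 ± 0.09 (95% interval -0.40 to -0.02; edgeR adjusted p = 0.416). Des, desmin, the classic intermediate filament of rodent stellate cells, was at 5.45, 4.51, 3.398 and 4.03 CPM in the normal-chow livers and 3.91, 3.78, 5.395 and 5.46 CPM in the high-salt livers. Its groups overlapped and the log2 fold change was 0.09 ± 0.19 (95% interval -0.32 to 0.50; edgeR adjusted p = 0.909). Vim, vimentin, had 0.19 ± 0.17, with the lowest value in high salt 1 and the highest in high salt 2.

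Acta2, the marker of stellate cell activation, was high in a single library. It was at 4.52, 4.57, 3.88 and 4.53 CPM in the normal-chow livers and 3.73, 5.03, 12.9 and 3.86 CPM in the high-salt livers, so that high salt 3 held 2.56 times the next highest value and the other high-salt libraries lay at 4.21 ± 0.717 CPM (n = 3). The log2 fold change was 0.54 ± 0.40 (95% interval -0.38 to 1.45; edgeR adjusted p = 0.696) and -0.06 without high salt 3. Some smooth muscle genes stood high in the same library. Myh11, the smooth muscle myosin, was at 10.3 CPM there and at 3.14 to 5.62 CPM in the others, and 4 of 7 vascular smooth muscle markers had their highest value in high salt 3. The summed level of those 7 was 97.1 CPM there and 76.7 to 99.5 CPM in the other libraries, most of it Mylk, a myosin kinase gene. Without Mylk, left out after its values were seen, the other 6 summed to 18.9 CPM in high salt 3 and to 7.87 to 11.4 CPM elsewhere. The markers of portal fibroblasts and mesothelium were highest there in 9 of 10 genes, with a summed level of 29.6 CPM against 8.30 to 20.6 CPM in the other libraries. Among matrix genes, high salt 3 was the highest library in 0 of the 5 fibrillar collagens and in 2 of the 4 type VI and XIV collagens. It was also the highest in 2 of the 3 crosslinking enzymes and in 6 of 27 other matrix genes. Over all 39 tested matrix and stellate genes it was the highest in 6, or 15.4%, beside 10.4% of all tested genes. The part of smooth muscle, portal fibroblast and mesothelial cells in the Acta2 value was not tested.

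**Figure D4:**
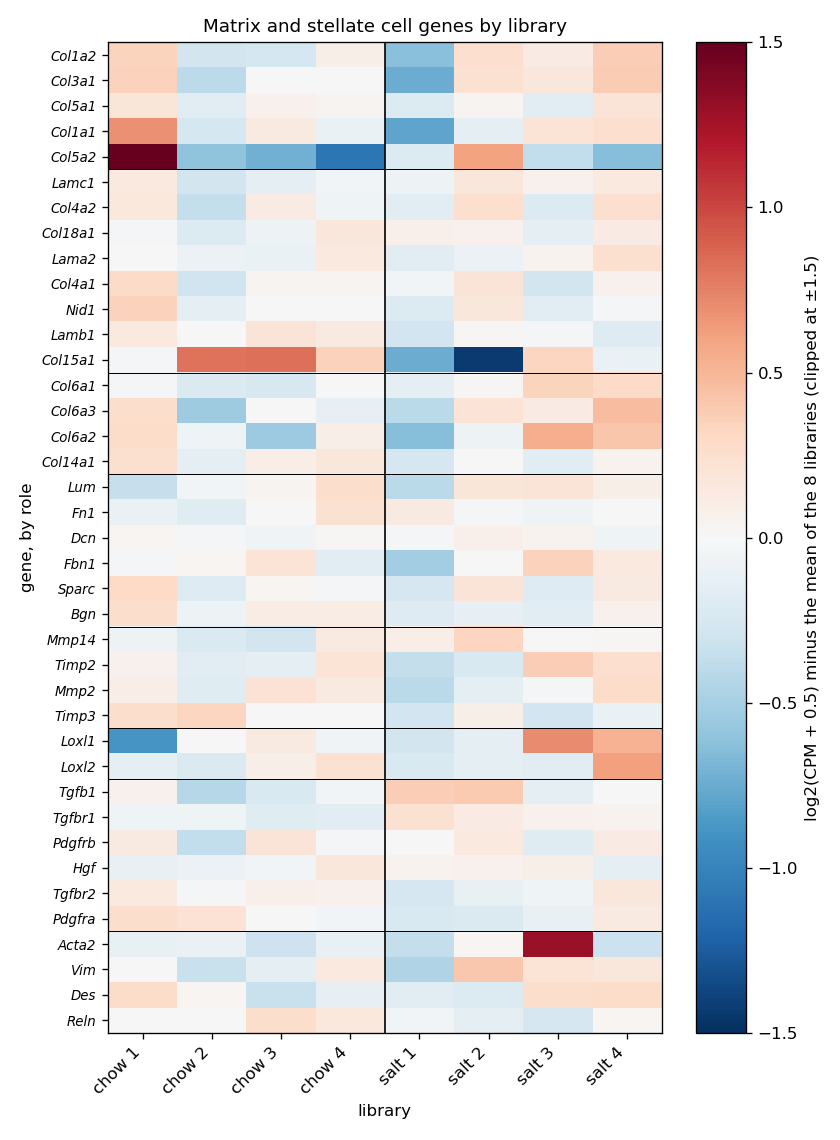
Log2(CPM + 0.5) of the 39 tested genes by library, minus the mean of the 8 libraries, with genes grouped by role and lines between the groups; colours are clipped at the ends of the scale. High salt 1 is low across the fibrillar collagens, Col5a2 is high in normal chow 1 and Acta2 in high salt 3.

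Variation between libraries was itself uneven across the genes. Within groups, Dcn varied by 3.63%, Tgfbr1 by 5.29% and Hgf by 8.37%, whereas Col1a1 varied by 31.95%, Col3a1 by 26.1% and Col15a1 by 42.6%. The counting error was 4.31% for Col3a1, and for Lama2 it was 15.7% beside a spread of 12.6%. High salt 1 was the lowest library in 4 of the 5 fibrillar collagens and in 4 of the 6 glycoproteins and proteoglycans. In that library the median of the fibrillar collagens was 0.64 below their mean over the 8 libraries on the log2 scale. It was also the lowest in 4 of 8 tested markers of portal fibroblasts and mesothelium and in 11 of 27 other matrix genes, but in 0 of 14 markers of quiescent stellate cells. The summed level of those stellate markers was 314 CPM in high salt 1 and 293 to 410 CPM in the other libraries. Normal chow 1 was the highest library in 8 of the 39 genes, or 20.5%, and high salt 4 in 9, or 23.1%, against 14.2% and 9.38% of all tested genes.

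**Figure D5:**
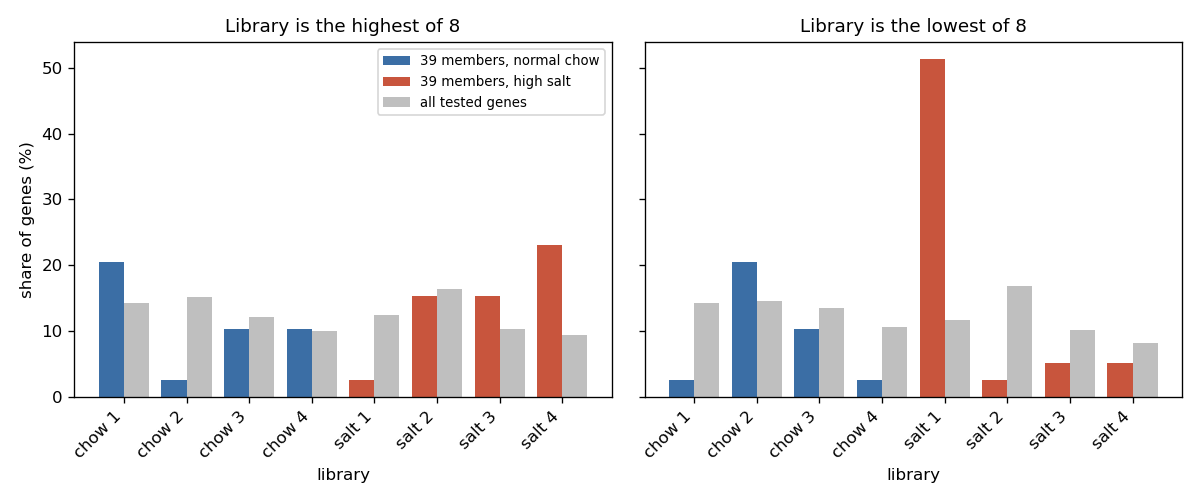
Share of genes for which each library was the highest (left) or the lowest (right) of the 8, for the 39 matrix and stellate genes (coloured by diet) and for all tested genes (grey). High salt 1 was the lowest in 51.3% of the 39 genes and in 11.7% of all tested genes.

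Further genes of the pathway were read in the same fit. Of 93 tested genes in 6 lists of matrix and fibrosis genes, edgeR called 0, DESeq2 1 and limma-voom 0. Of all genes these tools called 0.3%, 1.9% and 0.112%. Below an unadjusted p of 0.05 lay 8 with higher and 9 with lower values in high salt, beside 5.33% and 5.6% of all genes, and the median log2 fold change was -0.02. In the list of 21 tested TGF-beta ligands, SMADs and targets, 4 higher and 1 lower gene had an unadjusted p under 0.05, with a median of 0.03. Bambi, a decoy receptor that dampens TGF-beta signals, had 0.47 ± 0.16, and the signal transducer Smad2 had 0.35 ± 0.12.

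Among 16 tested genes of collagen folding and processing 0 higher and 1 lower gene had an unadjusted p under 0.05, with a median of -0.04. The lysyl hydroxylase Plod1 had -0.21 ± 0.09, the procollagen C-proteinase Bmp1 0.20 ± 0.09 and the disulfide isomerase P4hb -0.17 ± 0.09. Among 7 genes of PDGF ligands and the HGF system, 1 was lower at an unadjusted p under 0.05, with a median of 0.02. These included Pdgfb at -0.59 ± 0.25, Hgfac, the activator of HGF, at -0.14 ± 0.09 and Pdgfc at -0.29 ± 0.25. Among 10 further proteases and inhibitors, 1 was higher and 2 were lower at an unadjusted p under 0.05, with a median of 0.10. Mmp15 had 0.38 ± 0.11, Mmp19 -0.45 ± 0.13 and Reck, a membrane inhibitor of metalloproteinases, -0.46 ± 0.16, and in all 3, which were picked for their small p, the groups did not overlap (6.36% of all tested genes). Among 12 collagen and matrix receptors, 2 were higher and 1 lower at an unadjusted p under 0.05, with a median of -0.06. The integrin Itga5 had 0.34 ± 0.13, the hyaluronan receptor Cd44 0.27 ± 0.11 and the syndecan Sdc4 -0.21 ± 0.09. Among 27 other matrix genes, 1 was higher and 3 were lower at an unadjusted p under 0.05, with a median of 0.00. Prelp, a small proteoglycan, had -0.25 ± 0.08, Tnc, tenascin C, -0.77 ± 0.29 and the type IV chain Col4a5 0.67 ± 0.27. The edgeR adjusted p of these named genes lay between 0.191 and 0.739.

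Markers of the cells that could contribute matrix RNA were read in the same fit, in which edgeR called 1 of 60, beside 0.3% of all tested genes. None of 14 markers of quiescent stellate cells was called by edgeR. DESeq2 called 1 (Vipr1) and limma-voom 0, beside 1.9% and 0.112% of all genes. Of the 14, 2 with lower values had an unadjusted p under 0.05, beside 5.6% of all genes. Vipr1, the vasoactive intestinal peptide receptor, was at 43.3, 41.4, 45.4 and 46.5 CPM in the normal-chow livers and 37.8, 35.5, 28.4 and 36.1 CPM in the high-salt livers. The groups of this gene, picked for its small p, did not overlap (6.36% of all tested genes). Its log2 fold change was -0.36 ± 0.09 (edgeR adjusted p = 0.161, DESeq2 adjusted p = 0.0467). Colec10, a collectin of stellate cells, had -0.22 ± 0.08 and the globin Cygb 0.26 ± 0.15, and the median of the list was -0.04. The 8 tested markers of portal fibroblasts and mesothelium had log2 fold changes above 0 in all 8, with a median of 0.43 and 1 at an unadjusted p below 0.05. This rests on high salt 3, the highest library in 7 of them: without it 4 of the 8 were above 0 and the median was 0.02. Their summed level was 11.7 to 16.6 CPM in normal chow and 8.30 to 29.6 CPM in high salt, so the groups overlapped. The genes of smallest p in that list were Entpd2 at 0.58 ± 0.25, Msln at 0.73 ± 0.36 and Cd34 at 0.37 ± 0.35.

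In sinusoidal endothelium the 1 called gene was Ehd3, at 91.95, 113, 106 and 88.6 CPM in the normal-chow livers and 73.7, 69.2, 67.4 and 76.4 CPM in the high-salt livers. It fell by 0.48 ± 0.09 on the log2 scale (edgeR adjusted p = 0.0438), a call that was lost with total-count scaling, in limma-voom, with the replicate block and on leaving out 1 library in 6 of 8 cases (normal chow 2 or 3, or any high-salt library). Over those 8 cases the log2 fold change lay between -0.53 and -0.42 and the edgeR adjusted p between 0.0338 and 0.156. Its list of 10 had 3 lower genes with an unadjusted p under 0.05 (Ehd3, Oit3 and Fcgr2b), beside 5.6% of all tested genes. In that list 1 of 10 log2 fold changes was above 0, beside 51.3% of all tested genes, and the median was -0.06. With total-count scaling 5 of 10 were above 0. The summed level of that list, Ehd3 included, was 528 to 575 CPM in normal chow and 463 to 509 CPM in high salt, without overlap on this scaling. The TMM factors that scale the library totals were 0.966 to 0.999 in normal chow and 1.001 to 1.048 in high salt. Total-count scaling therefore brings the groups closer, and the gap in this sum depends on the scaling. The 7 Kupffer cell markers had a median of -0.06. DESeq2 called Marco, a scavenger receptor, which edgeR did not (1.17 ± 0.33; edgeR adjusted p = 0.248), and Clec4f had -0.21 ± 0.09 and Vsig4 -0.14 ± 0.08. Of 3 tested vascular smooth muscle markers 0 were below an unadjusted p of 0.05, with 0.06 ± 0.17 for Smtn, 0.14 ± 0.39 for Myh11 and -0.03 ± 0.11 for Mylk, and a median of 0.06. Of 6 cholangiocyte markers 0 were below it, with 0.63 ± 0.44 for Krt19 and -0.33 ± 0.29 for Sox9, and a median of 0.12. The 5 tested B and plasma cell markers were not called and had a median of 1.34, or 0.57 without high salt 2, and their summed level was 70.1 CPM in high salt 2 against 5.46 to 22.2 CPM in the other libraries. Of that list Cd79a had 1.17 ± 0.51, Jchain 1.93 ± 0.79 and Cd79b 0.97 ± 0.46. The 7 hepatocyte markers had a median of -0.02, with 0.38 ± 0.15 for Apoa1, -0.21 ± 0.10 for Serpina1c and 0.19 ± 0.12 for Fgb. Total-count scaling took the medians of the lists for collagen folding, matrix receptors, quiescent stellate cells, Kupffer cells and hepatocytes from below 0 to 0.02, 0.00, 0.02, 0.00 and 0.04, and that of the 93 pathway genes to 0.05. The part of these cells in the matrix gene values was not tested.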

How the data were processed

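Whole-number read counts per gene were deposited for 8 mouse liver libraries, per the file headers. The authors' own comparison stands beside them as a linear fold change, a log2 fold change and p-values with and without adjustment, all deposited by the authors with no tool named. Per the labels' protocols, RNA was taken up in Trizol and libraries made with an Illumina TruSeq kit. HISAT2 2.1.0, HTSeq 0.6.0, StringTie 1.3.2d and GRCm38 are listed in the submitters' processing notes without a role. Diet was read from each library's own label. High-salt titles carry a leading N, so an exchange of labels would turn every direction.

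Counts were fitted with edgeR 4.0.16 in R 4.3.3 (TMM, filterByExpr, robust quasi-likelihood, Benjamini-Hochberg over 13341 genes, threshold 0.05, two-sided). The fit was also run on simulated counts, with 200 changed genes drawn from those with more reads. That run did not cover changes in genes as low as Loxl1, Timp1 or Lox. The standard error is the fold change over the root of its F value. CPM used the TMM-scaled totals, and lengths were those of APPRIS principal transcripts in GENCODE M21. DESeq2 1.42.0, limma-voom (limma 3.58.1), other scalings, other filters, a replicate block and libraries left out were alternatives. Within groups, chi-square per degree of freedom was 9.69 to 36.7 for pairs of libraries, so each was counted as 1 sample. The 42 genes and the further lists were chosen with earlier results of these data known. Values in all libraries are given for the 12 tested genes of smallest p and for 11 reference genes, and up to 3 genes of smallest p are named from each further list, with Alb. Of the genes so named, 2 are not reported here. Where exons of 2 genes overlap on opposite strands, as for 7 of the 42 genes, reads from the shared stretch cannot be told apart.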

Additional observations from a re-analysis of the deposited data

Results flagged for a closer look

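Of 84 groups of 4 CPM values, 1 for each of the 42 genes and each diet, 4 held a library far from the other 3, where chance flags about 1 in 20. Col5a2 was at 76.5 CPM in normal chow 1 while the rest of its group lay at 4.09 to 5.90 CPM. In high salt 3, Acta2 reached 12.9 CPM, against 3.73 to 5.03 CPM for its group otherwise. Acta2 was also at 3.88 CPM in normal chow 3, against 4.52 to 4.57 CPM in the others of its group, a gap that is wide only beside the narrow range of those. Loxl2 reached 3.69 CPM in high salt 4, against 1.84 to 1.97 CPM for its group otherwise.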

How the results depend on the processing

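None of the matrix and stellate genes outside the further lists was called under any of the 17 alternatives run. Their median log2 fold change lay between -0.04 and 0.09, from -0.04 to 0.06 with 1 library left out. The count of 40 called genes in the whole table was 220 with no filter, 238 with DESeq2, 15 with limma-voom and 69 without normal chow 1 and high salt 2 together, and 4 to 57 with 1 library left out (4 without normal chow 2, 5 without high salt 1, 11 without normal chow 3 and 18 without high salt 2). The 1 called gene of the further lists became 4 with no filter or DESeq2, 0 with total counts or limma-voom, and 0 to 3 with 1 library left out. Of 340 fold changes of 20 named genes, Col5a2 included, under these alternatives, 17 had the other sign, none of them called. With 1 library left out the ranges were -0.37 to 0.0086 for Col1a1, -0.029 to 0.26 for Col1a2, -0.069 to 0.25 for Col3a1, -0.14 to 0.059 for Col4a1, -0.086 to 0.11 for Pdgfrb, -0.056 to 0.72 for Acta2, -0.0090 to 0.22 for Des and -1.74 to 0.77 for Col5a2. Without normal chow 1 and high salt 2, Col1a1 had 0.028 and Col5a2 0.42, and Col4a1 had 0.027 with total counts. The cause was not tested.

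The numbers in the titles did not pair the libraries, with correlations of same-numbered deviations of -0.20 to 0.09 and 0 of 4 normal-chow libraries closest to their own number. With the replicate block, 11 genes of the whole table, 0 matrix or stellate genes and 0 genes of the further lists were called. Timp1, Lox and Tagln had at most 13 reads in a library, and their fitted values have wide errors.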
